A study of Mus musculus with 8 samples.

Results

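The complement genes of aortic smooth muscle cells were followed here: the components, regulators and receptors of the complement system, 38 mouse genes listed by name, with earlier results of these data known. Of these, 36 had a row among the 18533 gene symbols of the count files, and *C1s* and *Vsig4* had none. RNA-Seq had been done on MASMCs, primary smooth muscle cells grown from the aorta of male mice aged 4 to 6 weeks, with 4 samples from WT mice and 4 from *Hint1*-/- mice, a line in which the knockout is not limited to smooth muscle. Both groups were treated with PDGF-BB, a growth factor that drives smooth muscle cells toward a dividing, matrix-making state, at 20 ng/mL for 24 h, and no untreated cells were analysed here. The cells came from explants digested with collagenase after adventitia and endothelium had been stripped. The study's methods name the thoracic aorta in one place and the whole aorta in another. None of the sources says whether the 4 samples of a group came from separate mice or cultures, so the p-values measure only the spread between the deposited samples, which may be technical.

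Complement is a cascade of plasma and membrane proteins that marks surfaces for removal and calls in white blood cells. The classical pathway starts with C1q and the proteases C1r and C1s, the lectin pathway with sugar-binding collectins and ficolins and the MASP proteases, and the alternative pathway with C3, factor B, factor D and properdin. All of them lead to the cleavage of C3, then of C5, and to the membrane attack complex of C5b to C9. Regulators in plasma and on the host's own cells hold the cascade in check, and the fragments C3a and C5a act on receptors of myeloid cells. The liver makes most of the plasma proteins, but fibroblasts, macrophages and smooth muscle cells make many of them locally.

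Of the 26 complement genes tested, 12 were higher and 2 lower in *Hint1*-/- than in WT MASMCs at an adjusted p under 0.05. These are 46.2% and 7.69% of the 26, against 11.2% and 10.2% of all tested genes. The 12 include *C1qc*, whose call is no support for a rise, since it passed the filter on low counts only through *Hint1*-/- samples. *C3* rose 1.63-fold, *Cfb*, which encodes factor B, rose 1.56-fold, and *Clu*, which encodes the regulator clusterin, rose 1.51-fold, each in 4 of 4 samples beyond every WT sample. The early classical genes *C1ra*, *C1s1*, *C2* and *C4b* and the C1 inhibitor gene *Serping1* rose by 1.20- to 1.46-fold. The receptor genes *C3ar1* and *C5ar1* moved the other way, to 0.872 and 0.784 of the WT level, and so did markers of macrophages. The genes of the membrane attack complex were at or near 0 in both genotypes. In bulk RNA, fewer cells of a type and less RNA per cell cannot be told apart, and this holds for each difference given here.

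The libraries held 20778077 to 20888041 estimated counts each, so depth was nearly equal in all 8 samples. *Hint1* itself had 2272 to 2364 counts in WT and 713 to 778 in *Hint1*-/- samples, so that 0.321 of its WT level was still counted there. The smooth muscle genes *Acta2* and *Myh11* were present in every sample and lower in *Hint1*-/- samples. *Acta2* had 15956 to 17855 counts in WT against 11640 to 12331, and *Myh11* 406 to 456 against 136 to 152. Of 7 listed mature smooth muscle genes, 4 were lower at an adjusted p under 0.05. *Smtn* was higher, with 3073 to 3456 counts in WT against 3747 to 3953, and *Tagln* and *Mylk* did not pass. Defining markers of other cells differed widely: the endothelial *Pecam1* reached at most 28 counts and the hepatocyte *Alb* at most 3. In contrast, the macrophage gene *Lyz2* had 19497 to 27662 and the adventitial fibroblast gene *Dcn* 22378 to 42605. Among Schwann cell genes, *Ngfr* had 415 to 481 counts in WT and 54 to 83 in *Hint1*-/- samples, and *S100b* 23 to 38 in all 8. No 2 samples were alike within sampling noise, as a chi-square statistic per gene lay between 2.09 and 5.50 for pairs of the same genotype, where counting noise alone gives about 1.

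Of the 36 genes, 26 passed edgeR's filter on low counts, and 10 did not: *C1qa*, *Colec11*, *Cfd*, *Hc*, *C6*, *C7*, *C8a*, *C8b*, *C9* and *C5ar2*, none of which exceeded 15 counts in any sample. In edgeR's quasi-likelihood test with Benjamini-Hochberg adjustment over all 13535 tested genes, 14 of the 26 had an adjusted p under 0.05, which is 53.8%, against 21.5% of all tested genes. Of the 14, 12 were higher in *Hint1*-/- MASMCs, against 11.2% of all tested genes, and 2 were lower, against 10.2%. A fold change over 1.5 as well was met by 5, *C1rb*, *C3*, *C1qc*, *Cfb* and *Clu*, all higher, where 2.83% of all tested genes met both limits and 1.34% met them as higher. The genotypes did not overlap in CPM, the counts per 1000000 after scaling of the library size, for 11 of the 26, against 23.0% of all tested genes. *C1qc* passed the filter only through the *Hint1*-/- samples, so its call is no support for a rise, although the counts above include it. With at least 10 counts required in every sample, *C1qc* was not tested. Then 13 of 20 tested complement genes passed the adjusted p and 4 both limits. Among the 16 genes whose mean reached 100 counts, 10 rose and 2 fell at the adjusted p, and 3 met both limits. The shares of all genes at these 2 count limits were not computed. The shares of all 13535 tested genes are therefore no like background for these counts. The median log2 fold change was 0.24 over the 26 genes and 0.000306 over all tested genes. The genes were spread over 14 chromosomes, and none lay on chromosome 11, which holds *Hint1*.

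**Figure D1:**
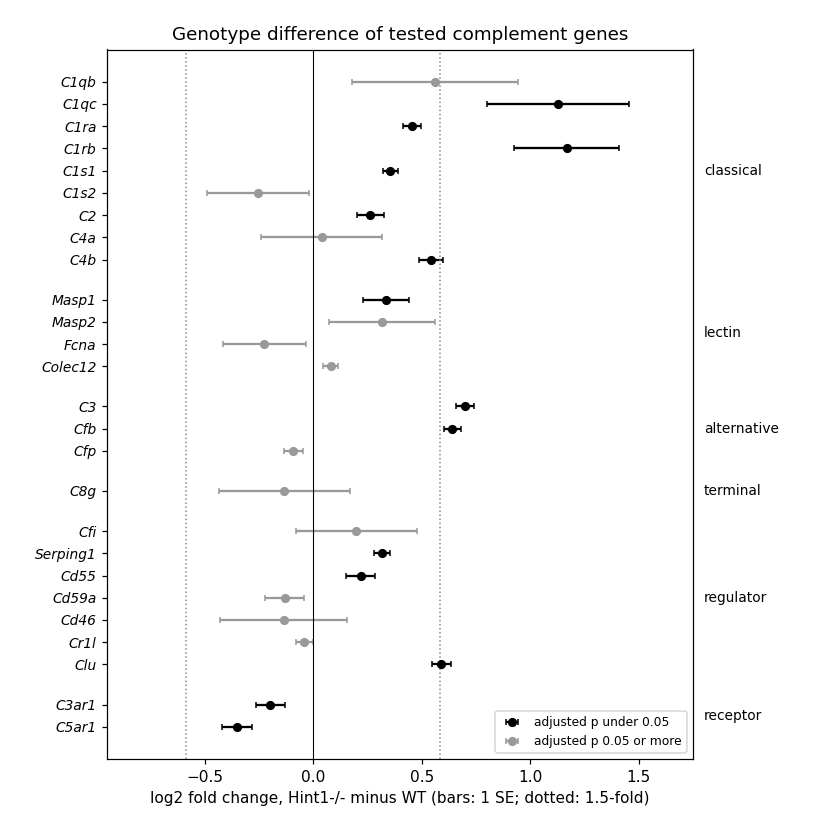
Log2 fold change of the 26 tested complement genes (x axis, *Hint1*-/- minus WT; bars, 1 SE; dotted lines, 1.5-fold either way), grouped by pathway step. Black points have an adjusted p under 0.05 in edgeR's test: 12 lie right of 0 and the receptor genes *C3ar1* and *C5ar1* lie left of it.

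Complement transcripts took 0.488% to 0.525% of all counts in WT and 0.691% to 0.752% in *Hint1*-/- samples. *C3*, *Cfb* and *Serping1* together made up 68.2% to 69.0% of them in WT and 71.6% to 72.1% in *Hint1*-/- samples. By mean CPM they ranked 51, 37 and 79 of 13535 tested genes. Levels of different genes were compared as CPM per kb of the longest annotated transcript. On that scale, the order in WT MASMCs was *Serping1* at 577 ± 22.4, *Cfb* at 484 ± 23.0, *C3* at 225 ± 6.77, *C1s1* at 122 ± 3.72, *Clu* at 120 ± 6.72, *C1ra* at 80.4 ± 3.70 and *C4b* at 49.8 ± 4.44 CPM per kb (SD, n = 4 each). Of these neighbours, only *C1s1* and *Clu* overlapped between samples in WT.

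The order at the top changed with genotype. *Serping1* was above *Cfb* in 4 of 4 WT samples, and *Cfb* was above *Serping1* in 4 of 4 *Hint1*-/- samples, where their means were 755 ± 23.3 and 719 ± 29.2 CPM per kb and their ranges overlapped across samples. *Clu* likewise was above *C1s1* in 1 of 4 WT samples and in 4 of 4 *Hint1*-/- samples. Below these came a middle tier, between 4 and 40 CPM per kb in WT: *Cfp*, *Cd55*, *Colec12*, *C2*, *Cr1l*, *C3ar1*, *C5ar1* and *Cd59a*. In that tier *Cfp* and *Cd55* overlapped, as did *C2* with both *Colec12* and *Cr1l*. The other 21 genes had means of at most 1.43 CPM per kb in either genotype.

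**Figure D2:**
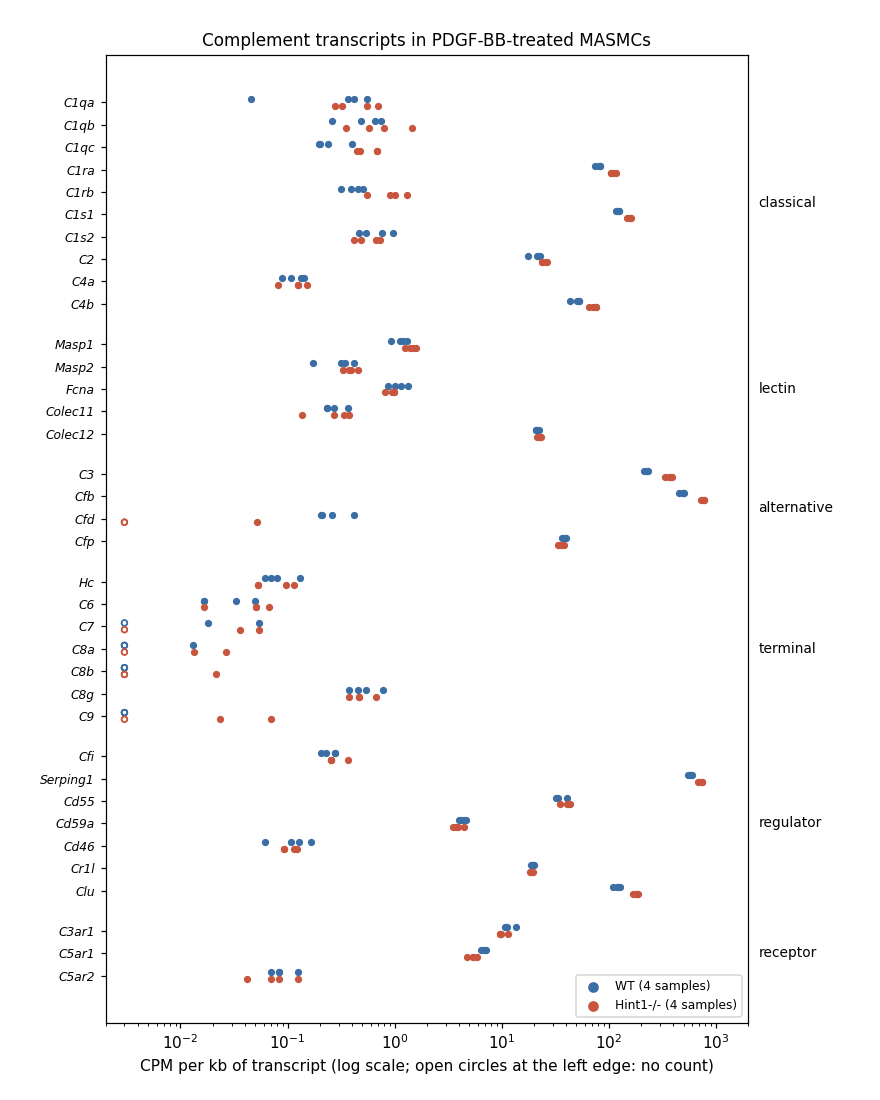
Level of the 36 complement genes with a row, as CPM per kb of transcript (x axis, log scale) in each of 4 WT (blue) and 4 *Hint1*-/- (red) samples; open circles at the left edge are samples with no count. *Serping1*, *Cfb* and *C3* stand highest, and the terminal genes stay below 1 CPM per kb.

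In the classical pathway, 6 of 9 tested genes rose and none fell at the adjusted p, with a median log2 fold change of 0.45. Beside this and the counts of the other steps stand 11.2% higher and 10.2% lower among all tested genes. Among the 6 is *C1qc*, whose call is no support for a rise, since it passed the filter only through *Hint1*-/- samples. Also among them is *C1rb*, whose level is uncertain because it shares sequence with *C1ra*. *C1ra*, one of the mouse genes for the protease C1r, had 5156, 5083, 5142 and 4665 estimated counts in WT replicates 1 to 4 and 7242, 6982, 6448 and 6565 in *Hint1*-/- replicates 1 to 4. *C1s1*, for the protease C1s that C1r activates, had 7421, 7783, 7723 and 7264 counts in WT and 9826, 9733, 9137 and 9617 in *Hint1*-/- samples. Every *Hint1*-/- sample was above every WT sample for both genes. The log2 fold change was 0.45 for *C1ra* (SE 0.0417, adjusted p = 2.29e-07) and 0.35 for *C1s1* (SE 0.0344, adjusted p = 4.36e-07) in edgeR's test.

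*C2* and *C4b* encode the proteins that C1s cleaves to build the classical C3 convertase. *C4b* had 5868, 5991, 5655 and 4865 counts in WT and 8485, 7945, 7371 and 8566 in *Hint1*-/- samples. *C2* had 1212, 1273, 1192 and 967 counts in WT and 1463, 1428, 1318 and 1318 in *Hint1*-/- samples. Again the genotypes did not overlap, and WT replicate 4 was the lowest of all 8 samples for both. The log2 fold change was 0.54 for *C4b* (SE 0.0557, adjusted p = 8.61e-07) and 0.26 for *C2* (SE 0.0623, adjusted p = 0.00493). Without WT replicate 4 the values were 0.48 and 0.18, both still past the adjusted p. *C4b* was just under the fold limit, and passed it, at 0.59 on the log2 scale, without *Hint1*-/- replicate 3.

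*C1rb* and *C1qc* had the largest fold changes and few counts. *C1rb*, the second C1r gene, had 20, 26, 16 and 23 counts in WT and 28, 65, 46 and 51 in *Hint1*-/- samples. *C1qc*, for the C chain of the recognition molecule C1q, had 6, 5, 10 and 5 counts in WT and 11, 17, 17 and 12 in *Hint1*-/- samples. Neither gene overlapped between the genotypes, although *Hint1*-/- replicate 1 lay within 2 counts of a WT sample for each. The log2 fold change was 1.17 for *C1rb* (SE 0.24, adjusted p = 0.00156) and 1.13 for *C1qc* (SE 0.326, adjusted p = 0.018). Since *C1qc* passed the filter on low counts only through the *Hint1*-/- samples, its p-value is no support for a rise. The call for *C1qc* was lost with DESeq2 (adjusted p = 0.0802) and in edgeR without WT replicate 4 (0.0528), without *Hint1*-/- replicate 2 (0.0591) and without *Hint1*-/- replicate 3 (0.0554).

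The other classical genes did not pass the adjusted p. *C1qb* had 6 to 17 counts in WT and 8 to 33 in *Hint1*-/- samples (log2 fold change 0.56, SE 0.382, adjusted p = 0.332), and the untested *C1qa* had 1 to 12 and 6 to 15. C1q is known as a product of macrophages and dendritic cells. Its 3 genes stayed at 33 counts or fewer in samples where the macrophage gene *Lyz2* had 19497 counts or more. *C1s2* had 26 to 54 counts in WT and 23 to 40 in *Hint1*-/- samples, and *C4a* had 10 to 16 and 9 to 17.

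The neighbouring copies share sequence. Of the 50-base stretches in transcripts of *C1rb*, 59.2% also occurred in *C1ra*, and 48.0% of those of *C1ra* in *C1rb*. The shares were 26.9% of *C1s2* and 22.8% of *C1s1*, and 28.9% of *C4a* and 35.2% of *C4b*. Since the reads were 50 bases long and *C1ra* lay at 240 CPM where *C1rb* lay at 1.02 CPM in WT, the level of *C1rb* is uncertain, and so are those of *C1s2* and *C4a*. The part of divided reads in the change of *C1rb* was not tested. With each pair added up, the log2 fold change was 0.46 for *C1ra* plus *C1rb* (SE 0.0414, adjusted p = 1.90e-07), 0.35 for *C1s1* plus *C1s2* and 0.54 for *C4a* plus *C4b*. The C1r and C1s genes lie together on chromosome 6 of mm10, from the start of *C1ra* at 124512405 to the end of *C1s2* at 124636085. On chromosome 17, *C4b*, *C4a*, *Cfb* and *C2* follow one another between 34728380 and 34898265, within the region of the histocompatibility genes, and *C3* lies apart at 57203970 to 57228136.

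Start regions of these genes were read for motifs of factors listed as possible drivers of complement transcription. The study names the factor AP-2 alpha for the integrin gene *Itga6*, not for complement genes. RefSeq windows of build GRCm38.p6, from 250 bases before to 50 bases after each start, were at hand for 26 of the 36 genes. *C2*, *C4b*, *Cfb*, *Clu*, *Masp1* and *Serping1* were not among them. Both strands were searched for the GAS element of cytokine-responsive genes (TTCNNNGAA), the C/EBP element (TTGCNNAA), the interferon element ISRE, the AP-2 element (GCCNNNGGC) and the NF-kB element. Windows with a match made up 8.30%, 10.8%, 3.44%, 16.6% and 4.50% of all 32851 windows, in that order. Among the 26 genes, 6 had GAS, 6 C/EBP, 3 ISRE, 6 AP-2 and 1, *C1qc*, NF-kB, and the GAS and ISRE matches of *Colec11* overlapped. Of the 8 genes with a window that passed the adjusted p, 4 had C/EBP, namely *C1ra*, *C1rb*, *C1s1* and *C3*. Of the same 8, 2 had GAS, 2 AP-2, 1 NF-kB and 0 ISRE. In this set *C1qc*, *C1ra*, *C1rb*, *C1s1*, *C3* and *Cd55* were higher in *Hint1*-/- samples, whereas *C3ar1* and *C5ar1* were lower. The NF-kB match was that of *C1qc*, whose call is no support for a rise. The C/EBP match of *C1s1* lay in 1 of its 2 windows. The shares given first are per window, whereas the 26 genes were counted per gene, so the figures are not directly comparable. *C1ra* and *C1rb* hold their C/EBP match in the same stretch and are not separate cases. The stretches that hold the C/EBP matches are printed to show how *C1ra* and *C1rb* agree base for base there. Capitals mark the C/EBP match and, in *C1ra* and *C1rb*, also the GAS match:
C1ra, chr6:124512637-124512661, plus strand: TTATGCAAatgcttcaTTCCCTGAA
C1rb, chr6:124570295-124570319, plus strand: TTATGCAAatgcttcaTTCCCTGAA
C1s1, chr6:124542360-124542609, minus strand: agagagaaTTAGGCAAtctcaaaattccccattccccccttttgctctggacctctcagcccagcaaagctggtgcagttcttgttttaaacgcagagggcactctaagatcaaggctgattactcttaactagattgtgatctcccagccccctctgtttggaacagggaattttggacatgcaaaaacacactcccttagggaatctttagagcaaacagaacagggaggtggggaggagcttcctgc
C3, chr17:57228137-57228386, minus strand: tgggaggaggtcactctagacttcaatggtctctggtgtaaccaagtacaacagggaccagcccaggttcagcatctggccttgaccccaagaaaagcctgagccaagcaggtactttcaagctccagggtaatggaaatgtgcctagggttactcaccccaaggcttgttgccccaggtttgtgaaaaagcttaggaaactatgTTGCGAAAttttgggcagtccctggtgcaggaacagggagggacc
The 25-base stretch was the same in both C1r genes, from base 17 counted from the RefSeq start of *C1ra* and from 135 bases before that of *C1rb*. In the GENCODE annotation, *C1ra* starts at 124512405 and *C1rb* at 124570294, so there both stretches lie inside the gene. The printed stretches of *C1s1* and *C3* end at the base before the start, and their C/EBP matches lie 242 and 45 bases before it. *C3* also had an AP-2 match, GCCAGCGGC, from base 23 counted from its start, and *C1ra* had one, GCCTGTGGC, 223 bases before its start. A match describes the letters only, and binding was not measured.

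Among lectin pathway genes, 1 of 4 tested rose and none fell. *Masp1*, which encodes a protease of this pathway, had 126, 104, 145 and 133 counts in WT and 156, 163, 140 and 177 in *Hint1*-/- samples. One *Hint1*-/- sample lay within the WT range. On the log2 scale it was higher by 0.33 (SE 0.105, adjusted p = 0.0283), and the call was lost with DESeq2 (adjusted p = 0.0651). In edgeR it was lost without WT replicate 1 (0.0588) or 2 (0.0881) and without *Hint1*-/- replicate 2 (0.0679) or 4 (0.103). *Colec12*, a scavenger receptor with a collectin domain, was the one abundant lectin gene, with 3551, 3549, 3481 and 3710 counts in WT and 3705, 3904, 3594 and 3779 in *Hint1*-/- samples. Its genotypes overlapped (log2 fold change 0.08, SE 0.035, adjusted p = 0.12). *Masp2* had 11 to 29 counts, the ficolin gene *Fcna* 23 to 38 and the untested *Colec11* 4 to 11 over all 8 samples.

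The alternative pathway held the 2 complement genes with the smallest adjusted p, with 2 of 3 tested genes higher and none lower at the adjusted p. *C3*, the protein on which the pathways meet, had 24210, 24521, 24762 and 23049 counts in WT and 41550, 38729, 35608 and 39796 in *Hint1*-/- samples. *Cfb*, whose product is the protease of the alternative C3 convertase, had 28804, 28542, 28140 and 25868 counts in WT and 44419, 43749, 41587 and 42586 in *Hint1*-/- samples. The lowest *Hint1*-/- sample of each gene was well above the highest WT sample. *C3* went from 1154 ± 34.8 to 1876 ± 122 CPM and *Cfb* from 1332 ± 63.2 to 2077 ± 64.2 CPM (SD, n = 4). The log2 fold change was 0.70 for *C3* (SE 0.0419, adjusted p = 5.42e-10) and 0.64 for *Cfb* (SE 0.0375, adjusted p = 4.34e-10). Both kept both limits under every alternative with a limit of 1.5-fold, including each sample left out in turn.

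Properdin and factor D, the other components of this pathway, gave lower values in *Hint1*-/- samples, and neither passed the test or its filter. *Cfp*, the properdin gene, had 1239, 1378, 1339 and 1333 counts in WT and 1149, 1301, 1274 and 1201 in *Hint1*-/- samples. The genotypes overlapped, at −0.09 on the log2 scale (SE 0.0438, adjusted p = 0.153). *Cfd*, for factor D or adipsin, the protease that cleaves factor B, had 8, 4, 5 and 4 counts in WT and 0, 1, 0 and 0 in *Hint1*-/- samples and did not pass the filter on low counts. Pooled, these were 21 against 1 counts, a WT to *Hint1*-/- ratio of 20.8 (95% exact Clopper-Pearson interval 3.35 to 862, for counting error only). Adipsin is known from fat cells. The adipocyte gene *Adipoq* had 0 to 4 counts in WT and 0 to 1 in *Hint1*-/- samples. *Plin1*, *Retn* and *Cidec*, also listed for fat cells, had at most 2 counts in any sample. *Fabp4*, the only adipocyte marker tested, did not fall. It ranged from 994 to 1144 counts in WT and from 1052 to 1205 in *Hint1*-/- samples. The genotypes overlapped, at 0.12 on the log2 scale (SE 0.049, adjusted p = 0.09 in edgeR's test). The part of fat cells in the few counts of *Cfd* was not tested.

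**Figure D3:**
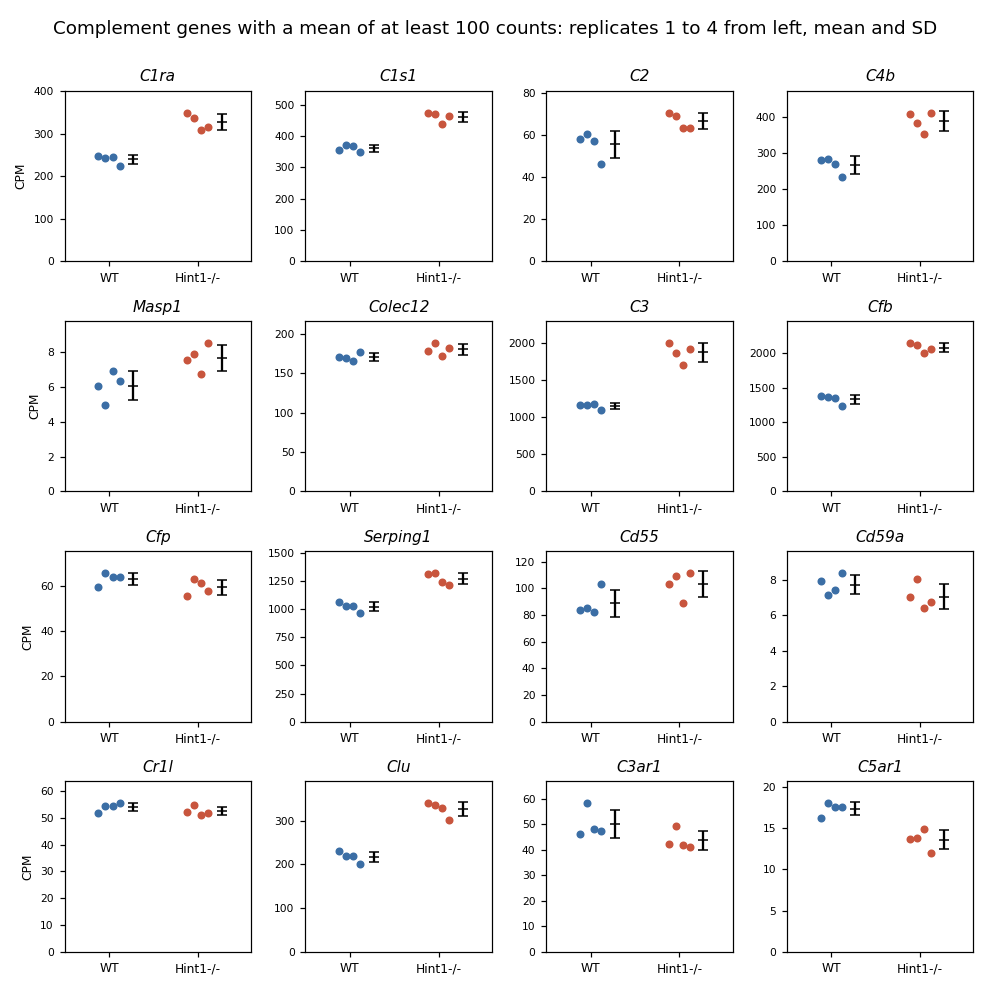
CPM (y axis, from 0) of the 16 complement genes whose mean reached 100 counts, as points for WT (blue) and *Hint1*-/- (red) replicates 1 to 4 from left to right, with the mean and SD beside them. *C3*, *Cfb*, *C4b*, *C1ra*, *C1s1*, *Clu*, *Serping1* and *C2* stand apart upward and *C5ar1* downward, while the other 7 genes overlap.

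Terminal pathway genes were near the detection limit. *C8g*, the only tested one, had 9 to 19 counts over all samples (log2 fold change −0.13, SE 0.302, adjusted p = 0.811). *Hc*, the mouse C5 gene, had 6 to 15 counts, *C6* 1 to 4 and *C7* 0 to 3. *C8a* had at most 2 counts, *C8b* at most 1 and *C9* at most 3. All 4 WT samples had 0 counts of *C8b* and *C9*, where 3 counts, or about 0.144 CPM per library, is the limit that a count of 0 allows.

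Of the 7 regulators, all tested, 3 rose and none fell at the adjusted p. *Serping1*, which encodes the C1 inhibitor that blocks C1r, C1s and the MASPs, had 22178, 21569, 21426 and 20199 counts in WT and 27160, 27304, 25851 and 25190 in *Hint1*-/- samples. *Clu*, for clusterin, which binds the forming membrane attack complex and also serves as a chaperone, had 4789, 4577, 4587 and 4182 counts in WT and 7037, 6942, 6848 and 6274 in *Hint1*-/- samples. Both genes were higher in each *Hint1*-/- sample than in any WT sample. The log2 fold change was 0.32 for *Serping1* (SE 0.037, adjusted p = 4.12e-06) and 0.59 for *Clu* (SE 0.0431, adjusted p = 1.03e-08). *Clu* fell below the fold limit, to 0.55, 0.57 and 0.58 on the log2 scale, without WT replicate 4, *Hint1*-/- replicate 1 or *Hint1*-/- replicate 2, and to 0.58 with upper-quartile normalization.

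The regulators that sit on the cell surface had smaller differences, of which 1 passed the adjusted p. *Cd55*, for decay-accelerating factor, which takes C3 convertases apart, had 1742, 1788, 1721 and 2160 counts in WT and 2132, 2254, 1854 and 2311 in *Hint1*-/- samples. WT replicate 4 stood apart from the other WT samples and lay within the *Hint1*-/- range. On the log2 scale the difference was 0.22 (SE 0.0682, adjusted p = 0.0282). This call was lost with DESeq2 (adjusted p = 0.171) and in edgeR without WT replicate 1 (0.09), 2 (0.0636) or 3 (0.101) or without *Hint1*-/- replicate 1 (0.0563), 2 (0.0934) or 4 (0.106), and without WT replicate 4 the log2 fold change was 0.30.

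*Cr1l*, the gene of Crry, the rodent surface regulator of C3 and C4 fragments, had 1080, 1144, 1134 and 1156 counts in WT and 1085, 1130, 1059 and 1079 in *Hint1*-/- samples. *Cd59a*, whose product blocks the last step of the membrane attack complex, had 166, 150, 156 and 175 counts in WT and 146, 167, 133 and 140 in *Hint1*-/- samples. Both overlapped between genotypes, with log2 fold changes of −0.04 (SE 0.0376, adjusted p = 0.487) and −0.13 (SE 0.0909, adjusted p = 0.34). *Cd46*, which mice express mainly in testis, had 8 to 22 counts and *Cfi*, the protease that cleaves C3b and C4b, 9 to 16 counts over all samples. On the per-length scale, *Cd55* and *Cr1l* at 35.0 and 19.4 CPM per kb in WT stood far above *Cd59a* at 4.29 and *Cd46* at 0.116 CPM per kb. *Cd55* shared 9.62% and *Cd59a* 3.87% of their 50-base stretches with their neighbours *Cd55b* and *Cd59b*.

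Of the 12 genes that rose, 8 had their lowest WT value in replicate 4 and 1, *Cd55*, had its highest there. The 8 were *C1ra*, *C1s1*, *C2*, *C4b*, *C3*, *Cfb*, *Serping1* and *Clu*. Without that sample all 8 still passed the adjusted p.

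The 2 tested receptor genes were both lower in *Hint1*-/- MASMCs. *C5ar1*, for the C5a receptor of myeloid cells, had 339, 378, 367 and 368 counts in WT and 283, 286, 310 and 250 in *Hint1*-/- samples, with no overlap. *C3ar1*, for the C3a receptor, had 968, 1223, 1012 and 993 counts in WT and 877, 1024, 872 and 855 in *Hint1*-/- samples, where *Hint1*-/- replicate 2 lay within the WT range. *C5ar1* fell by 0.35 on the log2 scale (SE 0.0677, adjusted p = 0.00088) and *C3ar1* by 0.20 (SE 0.0668, adjusted p = 0.0406). The call for *C3ar1* was lost without WT replicate 2 (adjusted p = 0.136) or 3 (0.0552) and without *Hint1*-/- replicate 1 (0.102), 3 (0.106) or 4 (0.125). The second C5a receptor gene, *C5ar2*, had 3 to 9 counts in all samples and was not tested.

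Macrophage markers moved in the same direction as the receptors. Of 14 listed markers 13 were tested, and 11 were lower and none higher at the adjusted p, which is 84.6% lower against 10.2% of all tested genes. Among them, *Cd68* had 6378 to 7313 counts in WT and 4754 to 5171 in *Hint1*-/- samples, and the macrophage growth factor receptor gene *Csf1r* 7863 to 8886 and 6109 to 6663. The exceptions were *Itgam* (log2 fold change −0.04) and *Mrc1* (0.58, at 17 to 37 counts), and *Aif1*, at 3 to 14 counts, was not tested. The summed level of the 14 markers was 3009 to 3396 CPM in WT and 2450 to 2637 CPM in *Hint1*-/- samples. Per 1000 counts of these markers, *C5ar1* had 5.49 ± 0.234 in WT and 5.33 ± 0.380 in *Hint1*-/- samples (SD, n = 4), and *C3ar1* had 15.9 ± 1.83 and 17.1 ± 1.21. The genotypes overlapped in both ratios. In an exact permutation test, p was 0.514 for *C5ar1* and 0.286 for *C3ar1*. Each was 0.6 after Benjamini-Hochberg adjustment over 3 ratios, the third being that of *Itgb2*, at 20.9 ± 0.951 and 21.3 ± 0.700. With 4 samples in each group, such a test cannot show that the ratios are equal. The part of macrophage content in the fall of the receptors was not tested, and the ratios were chosen after the values had been seen.

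**Figure D4:**
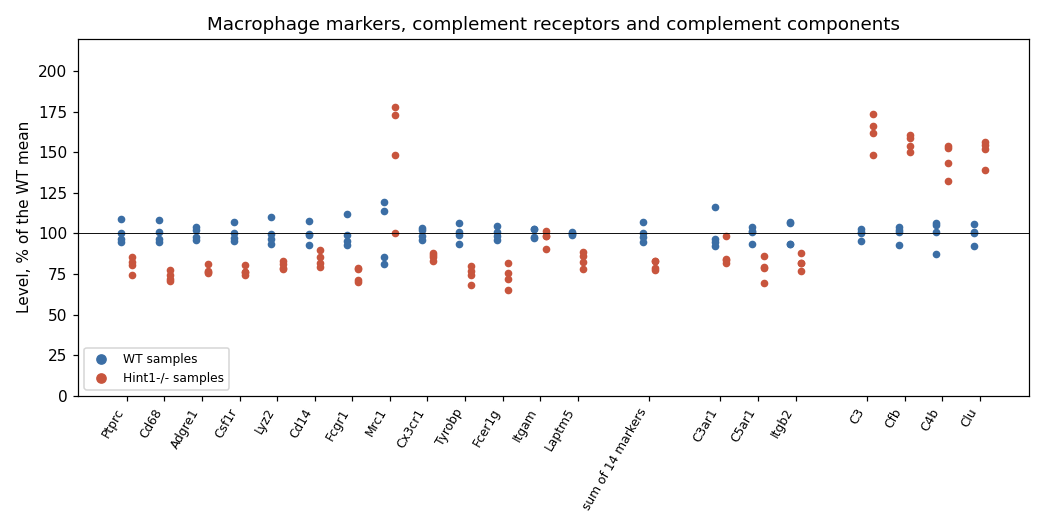
Level of macrophage markers, their sum, 2 complement receptor genes, *Itgb2* and 4 complement component or regulator genes in each sample, as percent of the WT mean (y axis, from 0; blue, WT; red, *Hint1*-/-). The receptors and most macrophage markers lie below 100% in *Hint1*-/- samples, while *C3*, *Cfb*, *C4b* and *Clu* lie above it.

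The components that rose went against the macrophage markers, and other cell types gave mixed values. Of 9 adventitial fibroblast markers tested, *Pdgfra*, *Dcn* and *Lum* were higher, with log2 fold changes of 0.33, 0.83 and 0.88, and *Dpt* and *Gsn* were lower, at −0.79 and −0.30. Their summed level was 2458 to 2543 CPM in WT and 3303 to 3483 CPM in *Hint1*-/- samples, of which *Dcn* made up the largest part with 22378 to 24375 and 39759 to 42605 counts. Of 8 mesothelial markers 3 were tested, and *Krt19* was higher at 0.84, while the defining *Msln* had at most 2 counts and *Upk3b* at most 25. None of 4 tested endothelial markers passed the adjusted p. Of 5 hepatocyte and 6 adipocyte markers 1 each was tested, and neither passed. Mature smooth muscle markers fell in 4 of 7 cases and rose in 1, and 4 of 5 Schwann cell markers fell. The part of any of these cell types in the complement differences was not tested.

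A wider list of complement genes outside the 38 was read in the same fit. Of 29 listed genes 13 were tested, and 3 were higher and 2 lower at the adjusted p, against 11.2% and 10.2% of all tested genes. *Ptx3*, a pentraxin that binds C1q, had 8360 to 9904 counts in WT and 13393 to 14539 in *Hint1*-/- samples, a rise of 0.61 on the log2 scale (SE 0.0452, adjusted p = 1.22e-08). *Csmd1*, for a membrane protein that inhibits complement, had 538 to 650 and 842 to 1005 counts, a rise of 0.62 on the log2 scale (SE 0.0611, adjusted p = 5.55e-07). *Calr*, for calreticulin, which binds C1q, was higher by 0.10 and *C1qbp* lower by 0.13 on the log2 scale. The call for *Calr* was lost with upper-quartile normalization (adjusted p = 0.0516) and without WT replicate 2 (0.0715) or 3 (0.0922) or *Hint1*-/- replicate 1 (0.0729) or 2 (0.0797). *Itgb2*, the beta chain of the complement receptors CR3 and CR4, fell by 0.29 on the log2 scale (SE 0.0512, adjusted p = 0.000428), and its partners *Itgam* and *Itgax* did not pass, both at −0.04. *C4bp*, *Thbd*, *C1rl*, *Cd93*, *Cd55b* and *Cd59b* did not pass either.

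Genes listed as possible inducers of complement transcription were counted last. Of 28 cytokine, receptor and transcription factor genes 25 were tested, and 8 were higher and 4 lower at the adjusted p, against 11.2% and 10.2% of all tested genes, and the other 13 did not pass. The higher ones were *Il6*, *Lif*, *Lifr*, *Il6st*, *Jak2*, *Cebpd*, *Esr1* and *Ifngr1*. *Il6* had 1441 to 1785 counts in WT and 1990 to 2181 in *Hint1*-/- samples (log2 fold change 0.39), and *Cebpd*, for a C/EBP factor, had 3010 to 3101 and 4144 to 4525 (0.50). The lower ones were *Tfap2a*, *Irf1*, *Osm* and *Tnf*. *Tfap2a*, for the factor AP-2 alpha, was the only one past both limits, with 36, 38, 20 and 23 counts in WT and 20, 13, 16 and 12 in *Hint1*-/- samples (log2 fold change −0.92, SE 0.26, adjusted p = 0.0154). Its call was lost without WT replicate 1 (0.0576) or 2 (0.0553) and without *Hint1*-/- replicate 4 (0.056). The call for *Osm* was lost with DESeq2 (0.0695) and without WT replicate 1 (0.0593) or 4 (0.0791) or *Hint1*-/- replicate 1 (0.0929) or 4 (0.0813). That for *Ifngr1* was lost with DESeq2 (0.0662) and without WT replicate 3 (0.0588) or 4 (0.077) or *Hint1*-/- replicate 1 (0.0516) or 4 (0.066). That for *Tnf* was lost without WT replicate 2 (0.0964), 3 (0.0627) or 4 (0.0801) or *Hint1*-/- replicate 1 (0.108), 2 (0.0517) or 4 (0.135). Of these 12 genes, only *Tfap2a* was named by a rule, and the others were chosen after their values had been seen. No protein, cleavage product or binding was measured, and the part of these genes in the complement differences was not tested.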

How the data were processed

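RNA-Seq was analysed for 4 WT and 4 *Hint1*-/- MASMC samples, grouped by the genotype that the sample labels give. For each sample, the authors deposited 1 column of estimated counts by gene symbol, not normalized, of which 67.3% to 67.8% were whole. Reads of 50 bases came from a BGISEQ-500. The study's methods name HISAT2 and mm10, whereas the submitters' processing notes name Bowtie2, RSEM 1.3.1 and DESeq2 1.4.5. The gene annotation is not given in the sources used here. Reads that fit several transcripts or genes may thus have been divided between them.

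Estimated counts were rounded. After filterByExpr and TMM scaling, a two-sided quasi-likelihood test was run in edgeR 4.0.16 (R 4.3.3), with genotype as the sole term. Benjamini-Hochberg adjustment ran over all 13535 tested genes. Genes were called at an adjusted p under 0.05, with and without a fold change over 1.5. The SE is the log2 fold change divided by the square root of the F statistic. A prior count of 2 was added for log2 CPM. The fit was tested on simulated data.

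The complement genes and the other gene lists were chosen with earlier results of these data known. Members past the adjusted p, or with a mean of at least 100 counts, were given in every sample and the others by range. Of other genes, values were planned only for markers, further complement genes, and inducers past both limits. Of the inducers, 1 gene was left out, and those that did not pass the adjusted p are given as a count. Positions and lengths came from GENCODE M21 by symbol, and start regions from RefSeq. Alternatives were DESeq2 1.42.0, limma-voom 3.58.1, other normalizations and filters, a replicate block, leaving out each sample, other fold limits and summed copies. With nearly equal depth, counting error is similar in all samples. Counting intervals and floors take no account of PCR copies.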

Additional observations from a re-analysis of the deposited data

Results flagged for a closer look

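In 5 of the 108 groups of 4 samples examined, 1 sample stood far from the other 3 by Dixon's test at the 95% level, where chance alone gives about 1 in 20, or 5.4 groups. The gap to the nearest sample, as a share of the whole range of the group, is given for each. *Cd55* in WT replicate 4 had 2160 counts against 1721 to 1788 in the other WT samples (gap 0.848). *C3ar1* in *Hint1*-/- replicate 2 had 1024 counts against 855 to 877 (gap 0.854). *Fcna* in *Hint1*-/- replicate 1 had 23 counts against 27 to 28 (gap 0.83), and *Cfi* in *Hint1*-/- replicate 3 had 16 counts against 11 in each of the others (gap 0.991). Among inducer genes, *Il6st* in WT replicate 2 had 21505 counts against 20138 to 20198 (gap 0.914).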

How the results depend on the processing

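The count of complement genes past both limits was 5 and moved most with the fold limit, to 14 with no limit on the fold change and to 2 with a limit of 2-fold. With 1 sample left out it ranged from 3 to 5, and it was 3 without WT replicate 4 and without *Hint1*-/- replicate 2, as *C1qc* and *Clu* dropped out. It was 5 with DESeq2's size factors in edgeR and with limma-voom, 6 with no filter on low counts, which added *Cfd*, and 4 with at least 10 counts in every sample, with upper-quartile normalization, with DESeq2 and with the copies summed. The count at the adjusted p alone was 14, and 11 to 15 under the alternatives. Deviations of samples with the same replicate number correlated weakly (r of −0.045, 0.0814, 0.00875 and 0.023 for numbers 1 to 4). Those of samples with different numbers had r of −0.0704 to 0.13. Whether samples with the same number share a batch cannot be told from these values. With the replicate block, 5 genes passed both limits and 14 the adjusted p, as without it. Single values moved in edgeR's test with the block. The adjusted p went from 0.0282 to 0.001 for *Cd55* and from 0.0406 to 0.00108 for *C3ar1*, but from 0.0283 to 0.0299 for *Masp1*. Over 18 complement genes, 248 of 269 alternative fits kept the direction and the side of the adjusted p, 21 lost the call and 0 reversed. The losses were those of *C1qc*, *Masp1*, *Cd55* and *C3ar1*, and their cause was not tested. Few counts lie behind the values of the terminal genes, C1q, *C1rb* and *Cfd*, whose depth limits their precision.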
